A study of Mus musculus with 10 samples.

Results

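Voltage-gated sodium channels carry the inward current that starts and spreads the action potential. Each has 1 large pore-forming alpha subunit and smaller beta subunits that tune its gating and hold it at the membrane. Pain-sensing neurons of the dorsal root ganglion (DRG), the nociceptors, are known for the toxin-sensitive channel Nav1.7 (Scn9a) and for Nav1.8 (Scn10a) and Nav1.9 (Scn11a), which the toxin tetrodotoxin blocks poorly.

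The genes described here are 6 alpha subunit genes (Scn1a, Scn3a, Scn8a, Scn9a, Scn10a and Scn11a) and 3 beta subunit genes (Scn2b, Scn3b and Scn4b), 9 of 19938 genes measured. They were taken by name, and each was read from its brightest probe set among those annotated to that gene alone. Whole DRGs were dissected from E13.5 mouse embryos of mixed genetic background, and RNA was measured on Affymetrix arrays in 5 wild-type (WT) and 5 Lkb1 KO samples, each a pool of DRGs from 2 embryos. In the Lkb1 KO the gene for the kinase LKB1 (Stk11) was deleted with Wnt1-Cre, and the WT samples were control littermates that kept Stk11. Wnt1-Cre acts in the neural crest lineage, from which DRG neurons and their glia both arise, and also in dorsal neural tube, so the deletion was not limited to sensory neurons. Only 1 embryonic day was sampled, so the time at which a channel gene switches on was not measured.

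All levels are log2 intensities normalised by robust multi-array averaging, and a difference of 1 is a doubling. The level of one gene cannot be set against that of another, because probe sets differ in brightness at the same RNA amount. Differences are Lkb1 KO minus WT, and a gene was called when its adjusted p from limma, with Benjamini-Hochberg adjustment over 19938 genes, was under 0.05. In pooled tissue, fewer neurons and less RNA per neuron cannot be told apart.

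Stk11 was at 8.70 ± 0.22 (SD, n = 5) in WT and 7.78 ± 0.11 (n = 5) in Lkb1 KO, a difference of -0.92 (limma adjusted p = 1.15e-04). The array medians differed by at most 0.069. WT and Lkb1 KO samples with the same replicate number deviated together from their group means (r = 0.21 to 0.48 over the 5 numbers), and results with the replicate number as a block are given beside the unpaired ones where the call of a named gene or the count of a list differs. In Lkb1 KO replicate 2 the mean of 5 sympathetic neuron genes was 7.42 against at most 6.37 in the other Lkb1 KO samples, and in replicate 3 the mean of 10 muscle genes was 6.29 against at most 5.45. The mean of 2 Y-linked genes was 4.91 and 5.08 in Lkb1 KO replicates 2 and 5, and 9.22 to 10.25 in the other 8 samples.

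Of the 9 channel genes, 1 passed the test and 8 did not. Scn3a, the embryonic channel Nav1.3, fell by 0.24 on the log2 scale, and Scn10a came next with a difference of -0.23 that missed the threshold. The differences of 8 of the 9 genes were negative and their median was -0.15, where the median over all genes was -0.0017 and 50.9% were negative. Among the 10366 genes with a mean of at least 6.5, the share of negative differences was 61.5% and the median -0.023. Limma called 1 of the 9 genes lower and 0 higher, beside 1.38% of all genes called lower. At an adjusted p under 0.01 it called 0 of the 9, beside 82 lower and 231 higher among all 19938 genes. An unadjusted p under 0.05 in the lower direction was reached by 4 of the 9 (Scn3a, Scn10a, Scn2b and Scn8a). The share was 7.77% over all genes and 12.5% among the genes with a mean of at least 6.5.

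With the replicate number as a block, 3 of the 9 genes were called lower (Scn3a, Scn10a and Scn2b), beside 2.83% of all genes. Analysis of variance with the same adjustment called 0 of the 9, beside 0.637% lower among all genes. Every Lkb1 KO sample lay below every WT sample for 1 of the 9, Scn3a, beside 2.24% of all genes. The Lkb1 KO sample was below the WT sample of the same number in all 5 numbers for 5 of the 9 (Scn1a, Scn3a, Scn10a, Scn2b and Scn3b), beside 9.69% of all genes.

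**Figure D1:**
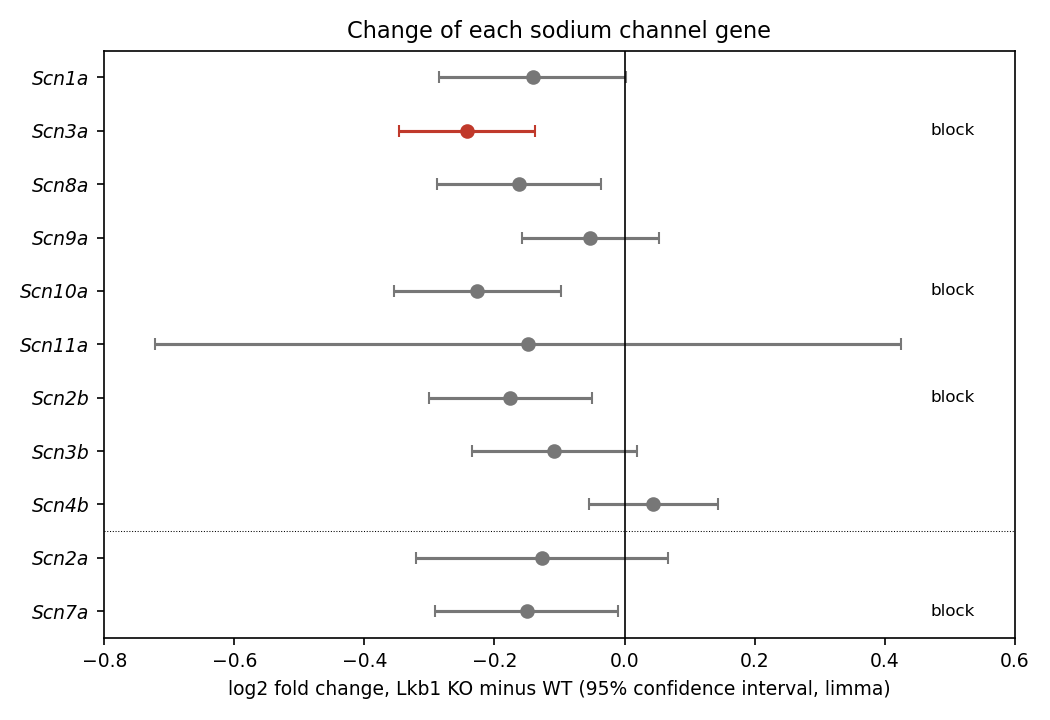
Difference between Lkb1 KO and WT (log2, x axis) for the 9 channel genes and, past the dotted line, Scn2a and Scn7a, with 95% confidence intervals from limma. Scn3a, in red, is the gene called without the block at -0.24, and the word block marks genes with an adjusted p under 0.05 once the replicate number is a block.

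Scn3a encodes Nav1.3, which is abundant in embryonic neurons and declines after birth. Its levels were 9.10, 9.18, 9.27, 9.25 and 9.31 in WT replicates 1 to 5. In Lkb1 KO replicates 1 to 5 they were 8.99, 8.97, 8.94, 8.91 and 9.09. The groups did not overlap, although Lkb1 KO replicate 5 came close to WT replicate 1. The means were 9.22 ± 0.08 and 8.98 ± 0.07 (SD, n = 5 each), a difference of -0.24 (SE 0.05, 95% confidence interval -0.35 to -0.14, limma adjusted p = 0.0145), which is an intensity 15.4% below WT. The exact two-sided permutation test over all 252 assignments gave p = 0.00794, the smallest it can give. The call was lost in the analysis of variance (adjusted p = 0.0510) and without Lkb1 KO replicates 2 and 3, where the difference was -0.23 (limma adjusted p = 0.108).

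Scn8a encodes Nav1.6, the main channel of adult nodes of Ranvier. Its levels were 8.17, 8.15, 8.17, 8.26 and 8.10 in WT and 7.89, 8.04, 8.07, 7.86 and 8.16 in Lkb1 KO, in order of replicate number. The groups overlapped through Lkb1 KO replicate 5, which was the 1 sample above its WT counterpart. The difference of -0.16 (SE 0.06, interval -0.29 to -0.037) was not called (limma adjusted p = 0.178, exact permutation p = 0.0238).

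Scn1a encodes Nav1.1, a channel of brain interneurons and of some mechanically sensitive sensory fibres. Its levels were 6.89, 6.69, 6.73, 6.68 and 6.62 in WT and 6.68, 6.62, 6.65, 6.35 and 6.59 in Lkb1 KO. Each Lkb1 KO sample was below the WT sample of its number, but the groups overlapped. The difference was -0.14 (SE 0.07, interval -0.28 to 0.0022, limma adjusted p = 0.337). It was -0.084 without Lkb1 KO replicate 4, whose level of 6.35 stood below the other samples.

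**Figure D2:**
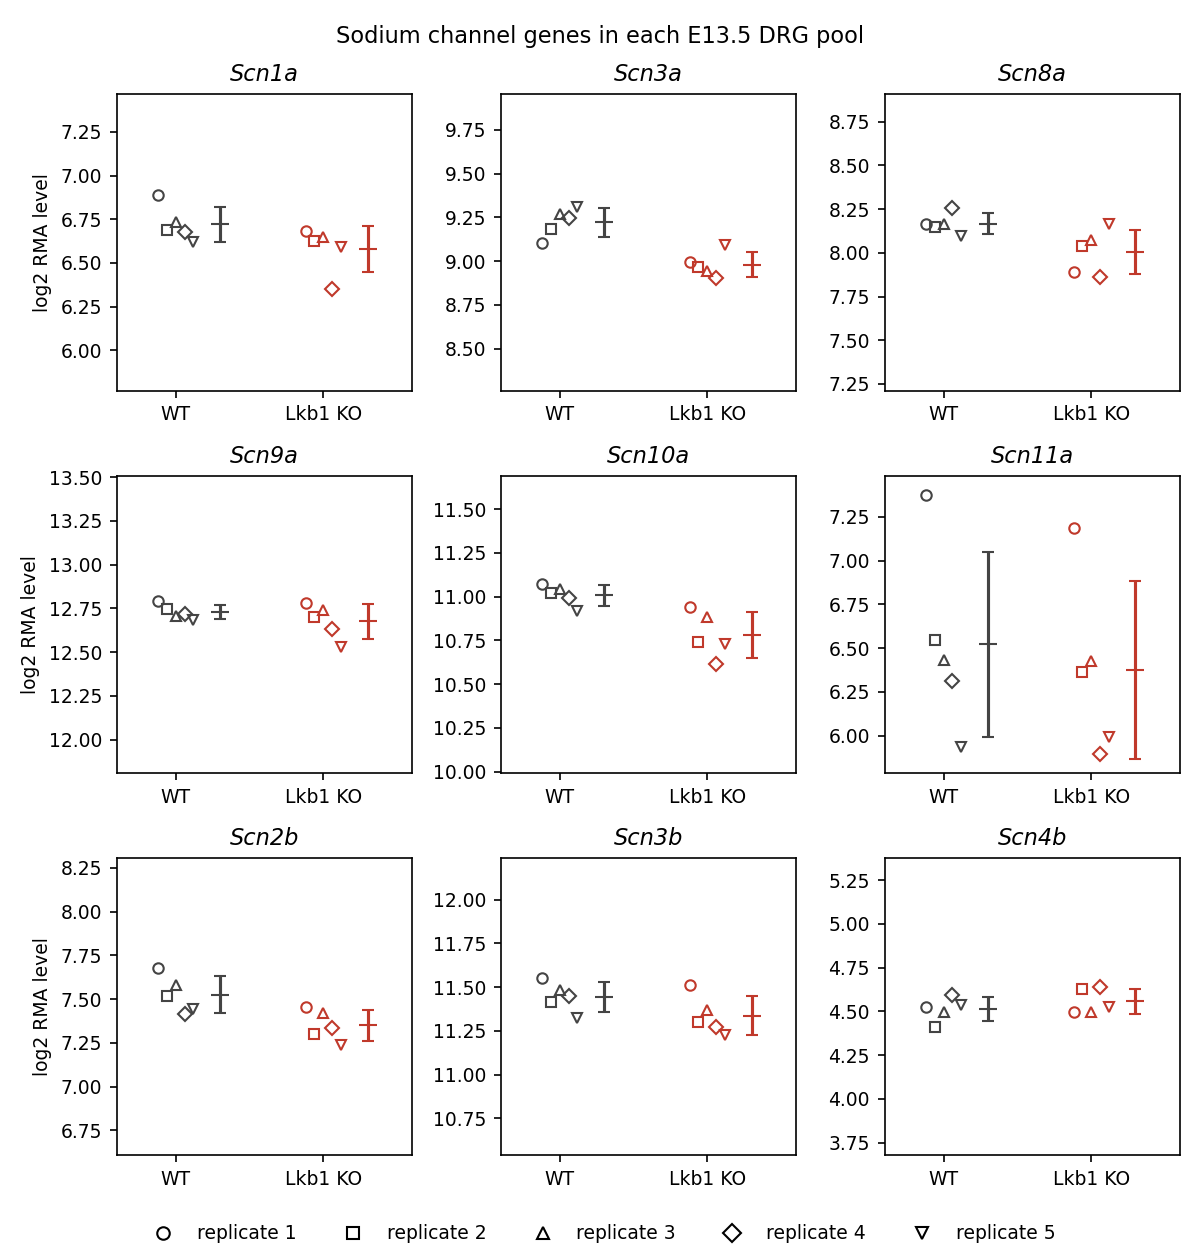
Log2 level of each of the 9 channel genes in every sample (y axis, 1 panel per gene, axes of equal span), with WT and Lkb1 KO on the x axis, 1 symbol per replicate number and group means with SD. Scn3a is the gene whose groups do not overlap, Scn10a overlaps by 1 pair of samples, and replicate 1 is highest for Scn11a in both groups.

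The nociceptor channel genes Scn9a and Scn10a varied less between WT pools (SD 0.04 and 0.06) than between Lkb1 KO pools (0.10 and 0.13). So did Scn8a (0.06 and 0.13), Scn1a, Scn3b and Scn4b, while Scn3a, Scn2b and Scn11a varied less between Lkb1 KO pools. Over all genes, the SD of the difference between a pair of arrays was 0.12 to 0.17 within WT and 0.14 to 0.20 within Lkb1 KO. The difference in spread was not tested. Scn11a varied most of the 9. Scn9a, whose product Nav1.7 amplifies small depolarisations and is required for pain sensation in people, had levels of 12.79, 12.74, 12.71, 12.72 and 12.68 in WT. In Lkb1 KO they were 12.78, 12.70, 12.74, 12.63 and 12.53. Most samples of both groups shared 1 range, and Lkb1 KO replicate 5 was the lowest. The difference was -0.052 (SE 0.05, interval -0.16 to 0.053, limma adjusted p = 0.702), and the second Scn9a probe set gave -0.065. It was -0.015 without Lkb1 KO replicate 5.

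Scn10a encodes Nav1.8, which carries most of the upstroke of the nociceptor action potential. Its levels were 11.07, 11.02, 11.04, 10.99 and 10.92 in WT and 10.94, 10.74, 10.88, 10.61 and 10.73 in Lkb1 KO. All 5 Lkb1 KO samples were below the WT sample of their number, and the groups overlapped only in that Lkb1 KO replicate 1 was above WT replicate 5. The means were 11.01 ± 0.06 and 10.78 ± 0.13 (SD, n = 5 each), a difference of -0.23 (SE 0.06, interval -0.35 to -0.098), or 14.5% below WT. This missed the threshold (limma adjusted p = 0.0544, exact permutation p = 0.0159) and passed it with the replicate block (limma adjusted p = 0.0162).

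Scn11a encodes Nav1.9, a persistent current near the resting potential of nociceptors. Its levels were 7.38, 6.55, 6.43, 6.31 and 5.94 in WT and 7.19, 6.36, 6.43, 5.89 and 5.99 in Lkb1 KO. The spread within a group was several times that of any other channel gene, and replicate 1 was highest in both groups. The difference of -0.15 (SE 0.26, interval -0.72 to 0.43, limma adjusted p = 0.864) was far inside that spread. It was 0.066 without WT replicate 1 and -0.35 without Lkb1 KO replicate 1. Taken by number, the differences were -0.19, -0.18, -0.0033, -0.42 and 0.057 in replicates 1 to 5, so 4 of the 5 pairs were negative. With the replicate block the SE was 0.06 and the limma adjusted p 0.240.

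Whether Scn10a stood lower relative to Scn9a was tested on the difference of their log2 levels on the same array. This difference ranged from -1.76 to -1.67 in WT and from -2.02 to -1.79 in Lkb1 KO, so the groups did not overlap. The group means were -1.72 ± 0.04 and -1.89 ± 0.09 (SD, n = 5 each), -0.17 apart (SE 0.04, exact two-sided permutation p = 0.00794, adjusted over 5 such pairs 0.0397). Pairing the samples by number left 32 sign assignments, whose smallest exact two-sided p of 0.0625 was reached (adjusted 0.156). Scn9a averaged 12.70 and Scn10a 10.90, both above the 95th percentile of all genes (10.58). Whether their probe sets respond equally to a change in RNA at these levels was not tested. For the other pairs the adjusted exact permutation p was 0.172 for Scn3a minus Scn9a (-0.19, SE 0.09), 0.698 for Scn11a minus Scn9a (-0.096), 0.337 for Scn3a minus Scn8a (-0.080) and 0.172 for Scn3b minus Scn2b (0.068). The SE of the Scn11a pair without pairing was 0.29, so the unpaired test could not detect a difference of the size seen for Scn10a there. With samples paired by number, the exact sign-flip p of Scn11a minus Scn9a was 0.375 (adjusted 0.375).

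**Figure D3:**
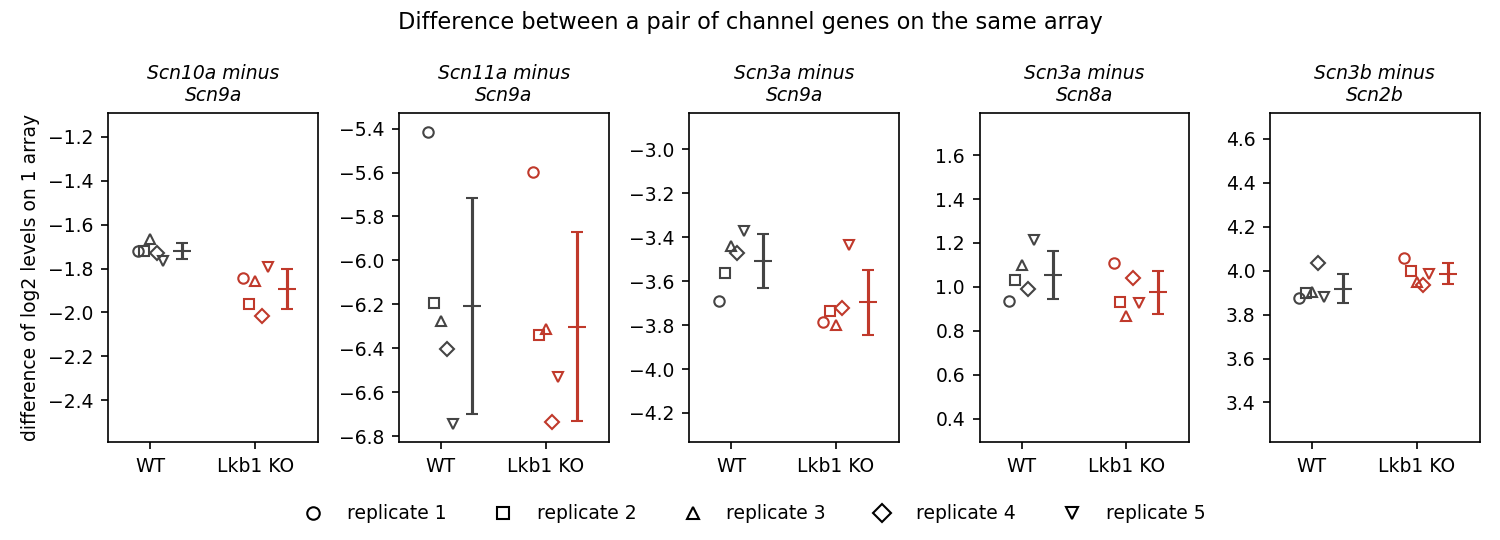
Difference of the log2 levels of 2 channel genes on the same array (y axis), for the 5 pairs tested (1 panel each, y axes of equal span), with WT and Lkb1 KO on the x axis, 1 symbol per replicate number and group means with SD. The Lkb1 KO samples for Scn10a minus Scn9a all lie below the WT samples, and those of the other pairs overlap WT.

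Scn10a and Scn11a are neighbours on chromosome 9, while Scn9a lies between Scn1a and Scn7a on chromosome 2. The start regions of the 3 nociceptor channel genes are shown because Scn10a differed from Scn9a in the comparison on the same array. Each run is 300 bases on the gene's own (minus) strand, from 250 before to 50 after the RefSeq start in GRCm38.p6, and capitals mark TGACG or its reverse complement, the core of the cAMP response element.
Scn9a, chr2:66634913-66635212, minus strand: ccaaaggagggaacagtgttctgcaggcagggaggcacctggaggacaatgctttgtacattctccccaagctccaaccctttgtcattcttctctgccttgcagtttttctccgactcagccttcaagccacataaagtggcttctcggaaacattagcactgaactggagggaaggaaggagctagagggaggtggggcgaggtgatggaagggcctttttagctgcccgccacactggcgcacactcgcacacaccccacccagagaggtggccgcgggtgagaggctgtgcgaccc
Scn10a, chr9:119718983-119719282, minus strand: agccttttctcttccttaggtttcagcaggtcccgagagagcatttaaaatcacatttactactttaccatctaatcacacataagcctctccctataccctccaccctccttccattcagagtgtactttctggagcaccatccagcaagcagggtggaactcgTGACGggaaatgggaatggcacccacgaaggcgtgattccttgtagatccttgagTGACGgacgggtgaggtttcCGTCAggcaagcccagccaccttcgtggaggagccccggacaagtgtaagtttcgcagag
Scn11a, chr9:119825407-119825706, minus strand: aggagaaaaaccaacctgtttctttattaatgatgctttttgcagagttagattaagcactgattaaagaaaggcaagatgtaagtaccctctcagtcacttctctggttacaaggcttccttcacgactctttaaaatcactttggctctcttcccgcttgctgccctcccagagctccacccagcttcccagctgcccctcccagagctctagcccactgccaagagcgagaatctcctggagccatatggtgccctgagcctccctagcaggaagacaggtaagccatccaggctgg
In Scn10a the letters TGACG occur 3 times on either strand, with first bases at -85, -30 and -10 from the start. They occur in none of the other windows found for the channel genes (8 windows for 7 of the 9 genes in all). No window was found for Scn3a, the gene called in the unpaired fit, or for Scn3b. Of all 32544 windows of this length, 20.9% hold at least 1 and 1.04% at least 3. The full element TGACGTCA, which contains the core, is in none of the channel gene windows and in 1.80% of all windows. The TATA box letters TATAAA are in none of them either, beside 13.6% of all windows. The same holds for the GC box letters CCGCCC, which 35.9% of all windows contain, with both strands searched for each motif. The base composition was 57.3% G and C for Scn9a, 51.7% for Scn10a and 50.3% for Scn11a, beside a median of 53% over all windows. These are matches of letters, for motifs chosen after the values were seen. Binding was not measured, and a link to the difference between Scn10a and Scn9a was not tested.

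None of the beta subunit genes was called in the unpaired fit, and their differences ran from -0.18 to 0.044. Scn2b, the subunit joined to the alpha subunit by a disulfide bond, was at 7.68, 7.52, 7.58, 7.41 and 7.44 in WT and 7.45, 7.30, 7.42, 7.34 and 7.24 in Lkb1 KO. Each Lkb1 KO sample was below the WT sample of its number, and the groups overlapped. The difference was -0.18 (SE 0.06, interval -0.30 to -0.050), not called in the unpaired fit (limma adjusted p = 0.139) and called with the replicate block (limma adjusted p = 0.0247).

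Scn3b, a beta subunit bound without a disulfide bond and known from embryonic neurons, was at 11.55, 11.41, 11.48, 11.45 and 11.32 in WT and 11.51, 11.30, 11.37, 11.27 and 11.22 in Lkb1 KO. It too was lower in Lkb1 KO in all 5 numbers with overlapping groups, and its difference of -0.11 (SE 0.06, interval -0.23 to 0.019) was not called (limma adjusted p = 0.432). Scn4b, which gives the blocking particle for resurgent current in large sensory neurons, was between 4.41 and 4.60 in WT and between 4.49 and 4.64 in Lkb1 KO. That is the brightness of olfactory receptor genes, which DRG neurons are not known for. The 95th percentile of 1027 such genes was 5.59 and their median 4.91. The other 8 channel genes were above that percentile. The Scn4b difference of 0.044 (limma adjusted p = 0.741) is therefore one between dim readings.

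Scn2a and Scn7a, from the same family, also had negative differences. Scn2a, the Nav1.2 gene next to Scn3a, had 14 probe sets of its own, and all were negative, from -0.30 to -0.12, with an unadjusted p under 0.05 for 11 and an adjusted p under 0.05 for 0 (lowest limma adjusted p = 0.0505). Its brightest probe set was at 11.30 ± 0.12 in WT and 11.18 ± 0.20 in Lkb1 KO (SD, n = 5 each), with a limma adjusted p of 0.583. The mean of its probe sets gave -0.21 (limma adjusted p = 0.141). Scn7a, whose product is a sodium-sensing relative of the family, was at 11.98 ± 0.10 and 11.83 ± 0.13, a difference of -0.15 that was called with the replicate block (limma adjusted p = 0.0463) and not without it (0.285). A further 3 probe sets annotated to several channel genes were not used, because their signal cannot be credited to 1 gene. Their differences were -0.11 (Scn2a, Scn9a and Scn3a), -0.13 (Scn3a and Scn1a) and -0.16 (Scn9a and Scn3a). The groups did not overlap for the last (Lkb1 KO at most 11.617, WT at least 11.633) and overlapped for the others.

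The partners of the channels held no called gene. Of 22 listed genes for anchors, adhesion partners, FGF homologous factors and turnover factors, 21 were measured, limma called 0 lower and 0 higher, 19 had negative differences and the median was -0.088. The smallest p-values were those of Fgf13, which binds the channel tail (-0.18, limma adjusted p = 0.0971), the adhesion protein gene L1cam (-0.17, 0.108) and the neurofascin gene Nfasc (-0.18, 0.134). An unadjusted p under 0.05 was reached by 6 of the 21 in the lower direction and by 0 in the higher. The lower share was 7.77% over all genes and 12.5% among genes with a mean of at least 6.5.

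Pan-neuronal markers were mostly negative as well, and most fibroblast and proliferation markers were called higher. All 12 pan-neuronal markers were measured, with a median difference of -0.12 and 11 negative. An unadjusted limma p under 0.05 was reached by 7 of the 12 in the lower direction and by 0 in the higher. The lower share was 7.77% over all genes and 12.5% among genes with a mean of at least 6.5. The mean level of the 12 was 11.68 to 11.80 in WT and 11.58 to 11.67 in Lkb1 KO. Limma called 1 of them lower, the RNA-binding protein gene Elavl4 (-0.18, limma adjusted p = 0.00835), while Gap43 was at -0.12 (0.101) and Nefm at -0.13 (0.139). Of 12 nociceptor markers 9 were measured with 0 called (2 lower at an unadjusted p under 0.05) and a median of -0.13, and their mean level was 8.12 to 8.41 in WT and 8.02 to 8.30 in Lkb1 KO. Those with the smallest p were the ATP receptor gene P2rx3, at 11.88 ± 0.06 and 11.75 ± 0.07 (limma adjusted p = 0.145), Ret (-0.19, 0.209) and Runx1 (-0.13, 0.430). Of the 9 nociceptor markers 7 were negative, and Gfra2 (0.048) and Mrgprd (0.047) were positive. Mrgprd, Trpa1 and Trpm8, 3 of the 9, had means under 6.5 and are dim readings. With the replicate block, 1 nociceptor marker was called lower, Ret (limma adjusted p = 0.0136), and 2 pan-neuronal markers were, Elavl4 and the synaptotagmin gene Syt1 (-0.17, 0.0357). The part of these neuronal shifts in the channel results was not tested.

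Of 10 mechanoreceptor and proprioceptor markers, 9 were measured with 0 called (4 lower and 1 higher at an unadjusted p under 0.05) and a median of -0.11 (Ntrk2 -0.28, Etv1 -0.15, Gfra1 0.28), and with the replicate block 4 were lower and 1 higher. Among all genes, 7.77% were lower at the unadjusted threshold and 2.83% were called lower with the block. Of 8 measured Schwann and satellite glia markers 1 was called lower (Cdh19, -0.50) and 1 higher (Dhh, 0.69), and Egfl8 gave 0.29 (limma adjusted p = 0.129). With the replicate block 1 was lower and 3 were higher, with Egfl8 (limma adjusted p = 0.00292) and Mal (0.39, 0.00953) beside Dhh. Over all 19938 genes, limma called 496 higher. Of the fibroblast markers it called 8 of 10 higher, with a median of 0.30 (Postn 0.36, Col1a2 0.30 and Lum 0.50) and list means of 8.44 to 8.54 in WT and 8.74 to 8.83 in Lkb1 KO. It called 7 of 9 proliferation markers higher, with a median of 0.39 (Kif11 0.47, Mki67 0.39, Bub1 0.46) and list means of 8.75 to 9.0 and 9.12 to 9.41. Muscle (10 measured) and sympathetic markers (5 measured) had 0 called (0.0 and 0.0 at an unadjusted p under 0.05), with medians of 0.12 and 0.29, and of 6 motor neuron markers 1 was called lower, Isl2, which sensory neurons also express (-0.23). The replicate block called 9 fibroblast markers, 8 proliferation markers and 2 motor neuron markers in the same directions, adding Pdgfra (0.29, limma adjusted p = 0.0392), Mcm5 (0.22, 0.0349) and Slc5a7 (-0.22, 0.0217). Over all genes the block fit called 715 higher and 565 lower. The mean level of the 9 channel genes was 8.54 to 8.79 in WT and 8.39 to 8.66 in Lkb1 KO, and the part of the non-neuronal shifts in it was not tested.

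**Figure D4:**
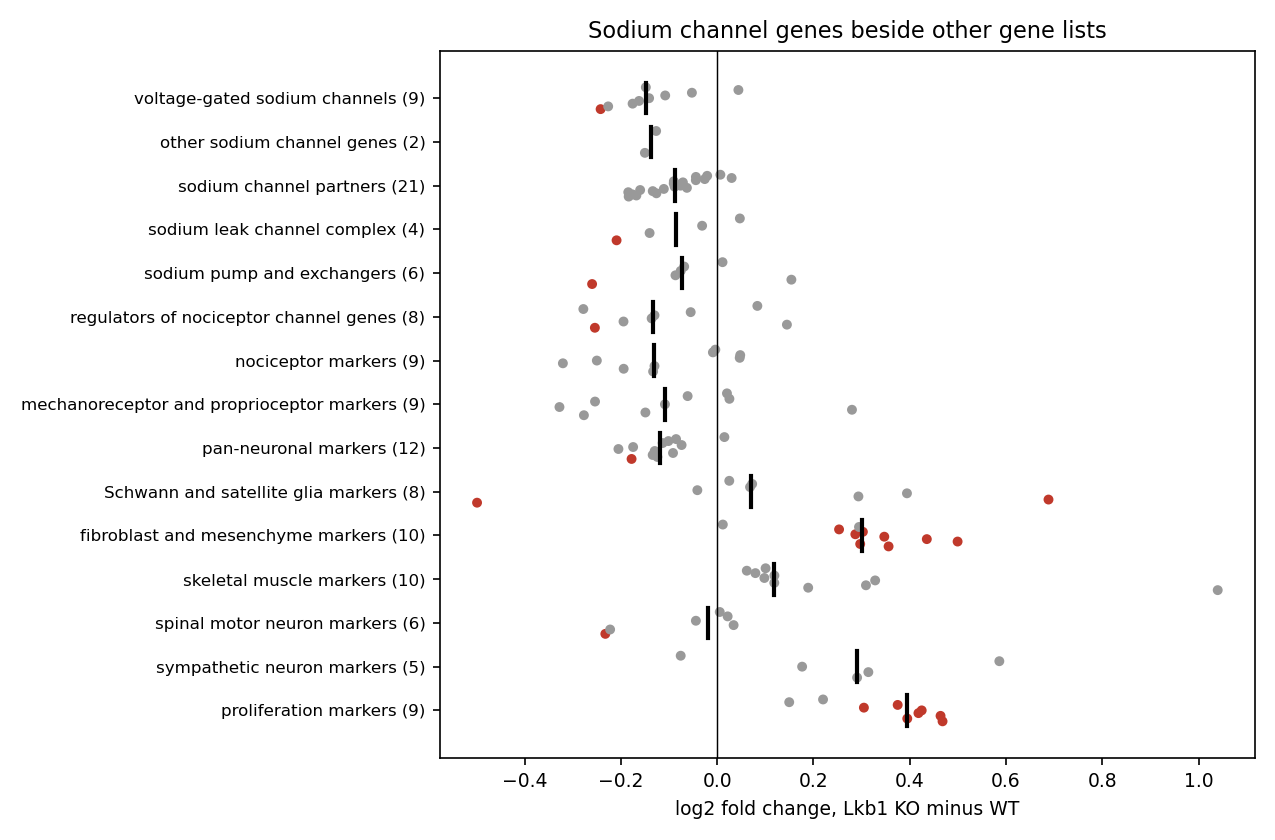
Difference between Lkb1 KO and WT (log2, x axis) of each measured gene of each list (y axis, with the number measured), red where the limma adjusted p was under 0.05 and with a black bar at the list's median. The channel genes sit at a median of -0.15, the pan-neuronal markers at -0.12, the fibroblast markers at 0.30 and the proliferation markers at 0.39.

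Within each genotype, the pools that were high in Scn11a were also high in most of the other channel genes. Over the 10 deviations from the group means, Scn11a was correlated with Scn3b (Pearson r = 0.91, Spearman rho = 0.84), Scn2b (0.82), Scn1a (0.82), Scn10a (0.81) and Scn9a (0.79). After the 2 samples farthest from the median in Scn11a were left out, r was 0.77, 0.55, 0.73, 0.81 and 0.72 in the same order. Scn3a ran the other way with r = -0.51 (-0.43 without those samples), and Scn8a and Scn4b gave -0.15 and -0.35. Same-numbered samples varied together, so the 10 points are fewer than 10 independent samples, and these values are descriptions over 36 gene pairs, 18 of them positive, with no test.

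**Figure D5:**
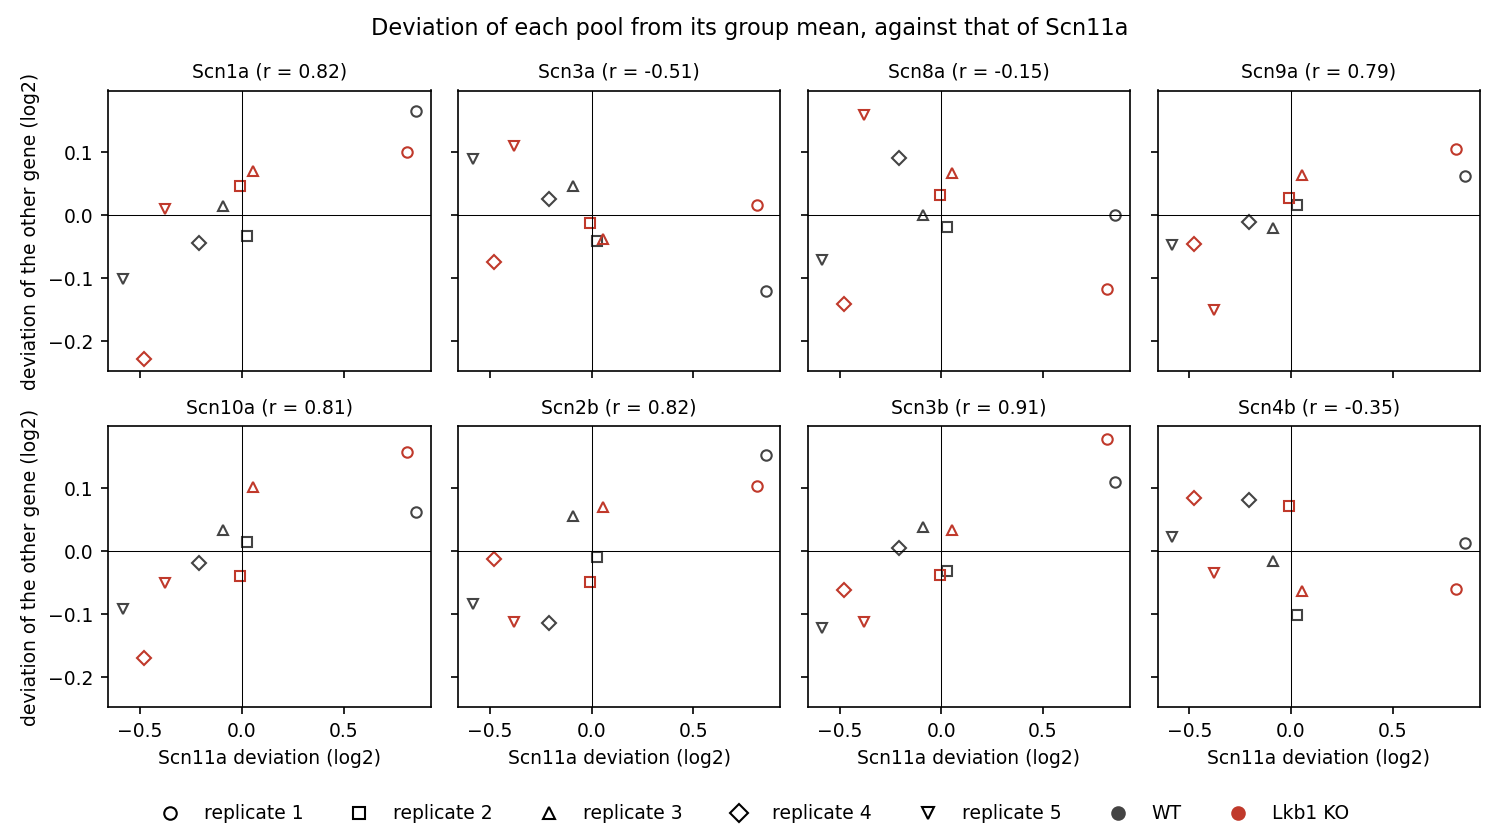
Deviation of each sample from its group mean (log2) for 8 channel genes (y axis) against that of Scn11a (x axis), with the symbol giving the replicate number and the colour the genotype. Replicate 1 of both genotypes lies far to the right, high in Scn1a, Scn9a, Scn10a, Scn2b and Scn3b and not in Scn3a.

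The genes most like the nociceptor channels across the pools were listed by Pearson r of the same deviations, among 10366 genes with a mean of at least 6.5. For Scn9a they were Ube2a (0.97), Fbxl5 (0.97) and Kcna2 (0.97), the last a voltage-gated potassium channel gene. For Scn10a they were Ehd4 (0.98), Bcs1l (0.97) and Csnk1g1 (0.97). For Scn11a they were Enox1 (0.98), the actin-binding sensory neuron gene Avil (0.98) and Zdhhc23 (0.98), each a description over 10 arrays.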

How the data were processed

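RNA of E13.5 DRG pools (250 ng per sample, biotin-labelled) was measured on Affymetrix arrays, and the authors deposited 1 table of log2 values normalised by RMA. The submitters' processing notes name Partek 6.6 and RMA, and the methods also name MATLAB. Sequencing depth does not apply, and the precision is limited by the 5 arrays per group. Groups and replicate numbers came from the sample titles. Of 35556 probe sets, 21789 named exactly 1 gene in the platform annotation, and the brightest of each gene over the 10 arrays gave 19938 genes. Symbols were matched to RefSeq for 21698 probe sets. Where a probe set lies within its gene was not known.

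Genotypes were compared with limma 3.58.1 (lmFit and eBayes, two-sided) in R 4.3.3, with Benjamini-Hochberg adjustment over 19938 genes and a threshold of 0.05. Single values were tested by exact two-sided permutation over 252 assignments. Tables and windows were handled in Python 3.11.15. The members and gene lists were chosen with earlier results of these data known, and the promoter motifs after the values were seen. The text names the 9 channel genes, Scn2a and Scn7a, Stk11, up to 3 genes with the smallest p of each list, and the 3 genes most like each nociceptor channel gene. Genes called only with the replicate block (Syt1, Mal, Pdgfra, Mcm5 and Slc5a7) were named after their values were seen.

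Replicate numbers come from the titles. Deviations from group means correlated at r = 0.21 to 0.48 between samples of the same number and -0.48 to 0.31 between samples of different numbers, and same-numbered samples were treated as pairs. What a number marks is not stated, nor is it stated that pools came from separate litters. Tested on simulated data of 19938 genes, limma recovered 61 of 100 genes changed by 0.25 and 94 of 100 changed by 0.5 on the log2 scale, with 12 false calls. The simulated noise was independent for each gene and sample, so it lacked the shared deviation of same-numbered samples, and these counts may not hold for the real data. The alternatives were averaging the probe sets of each gene, testing every probe set, aligned medians, cyclic loess, analysis of variance, an intensity trend, array weights, leaving out the dimmest 30% of genes, the replicate block, a covariate made of 2 Y-linked genes, and leaving out samples.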

Additional observations from a re-analysis of the deposited data

Results flagged for a closer look

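Scn1a in Lkb1 KO replicate 4 stood apart from the other samples of its group, at a log2 level of 6.35 where the other Lkb1 KO samples lay between 6.59 and 6.68. Its gap to the next sample was 0.72 of the group's whole range, above Dixon's limit for 5 samples. It was the 1 flag among 22 groups tested (9 channel genes, Scn2a and Scn7a in both genotypes), where chance flags about 1 in 20 groups.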

How the results depend on the processing

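With the replicate block, 3 channel genes were called where the unpaired fit called 1, through Scn10a (-0.23, limma adjusted p = 0.0162) and Scn2b (-0.18, 0.0247), and all genes called lower went from 275 to 565. Scn10a was called as well as Scn3a, giving 2, with aligned array medians (-0.22, limma adjusted p = 0.0345), cyclic loess (-0.21, 0.0440), an intensity trend with robust prior (-0.23, 0.0290), array weights (-0.21, 0.0268) and the dimmest 30% of genes left out (-0.23, 0.0468). The analysis of variance called 0 of the 9 (Scn3a -0.24, adjusted p = 0.0510), with 127 genes lower and 260 higher over all, against 275 and 496 in the unpaired limma fit.

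Leaving out 2 samples was chosen after seeing the data. Without Lkb1 KO replicates 2 and 3, those highest in sympathetic and muscle genes, 0 channel genes were called (Scn3a -0.23, limma adjusted p = 0.108), with 99 genes lower and 275 higher. Without Lkb1 KO replicates 2 and 5, those low in Y-linked genes, 171 were lower and 288 higher. With the Y-linked mean as a covariate 287 were higher and Scn3a was still called (-0.28, limma adjusted p = 0.0263). Scn10a was then at -0.19 (0.226), Scn2b at -0.11 (0.454), Scn3b at -0.054 (0.754), Scn9a at -0.0080 (0.965), Scn11a at -0.0058 (0.996), Scn4b at 0.027 (0.866), Scn7a at -0.085 (0.638) and Scn2a at -0.0098 (0.975). Scn8a was at -0.23 (0.0930) and Scn1a at -0.15 (0.423), both larger in size than without the covariate.

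With 1 sample left out, 1 to 2 channel genes were called. Scn3a was called each time, and Scn10a (-0.27 to -0.18) was called without Lkb1 KO replicate 1 (limma adjusted p = 0.0188) or WT replicate 5 (0.0485). All genes called lower ranged from 146 to 347, with the lowest counts without WT replicates 1 (182), 2 (148), 3 (146) and 4 (152) or Lkb1 KO replicates 3 (179) and 4 (173). On the same array, Scn10a minus Scn9a ranged from -0.20 to -0.14, with an adjusted exact permutation p of 0.0794 without WT replicates 1, 2, 3 or 5. Scn3b minus Scn2b ranged from 0.049 to 0.097 and passed (exact permutation, adjusted 0.0397) without WT replicate 4, and Scn3a minus Scn9a ranged from -0.25 to -0.16 and passed (0.0397) without Lkb1 KO replicate 5. With sign flips over the replicate numbers Scn10a minus Scn9a stayed at -0.17 (exact, adjusted p = 0.156), where the test could not pass. The causes were not tested. Scn4b has no value with the dimmest genes left out, and no channel gene's call changed direction.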

Other observations

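The sodium leak channel and the sodium pump set the ionic background on which the voltage-gated channels act. Of the 4 genes of the leak channel complex, limma called 1 lower, the pore gene Nalcn, at 9.08 ± 0.04 in WT and 8.87 ± 0.08 in Lkb1 KO (SD, n = 5 each), a difference of -0.21 (SE 0.04, limma adjusted p = 0.0166) with no overlap of the groups. Its subunit genes Unc79 (-0.14, limma adjusted p = 0.228) and Fam155a (-0.031, 0.851) were not called. Of 9 listed genes for Na,K-ATPase subunits and sodium-calcium exchangers, 6 were measured and 1 was called lower, the exchanger gene Slc8a1 (-0.26, SE 0.07, limma adjusted p = 0.0484). The pump subunit gene Atp1b3 was at 0.15 (limma adjusted p = 0.106, and 0.0460 with the replicate block, where it was called higher) and the exchanger gene Slc8a2 at -0.087 (0.551).

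Of 10 transcription factor genes listed as regulators of sensory neuron or channel genes, 8 were measured with a median difference of -0.13. Isl1, a LIM homeodomain factor needed for sensory neuron differentiation, was called lower at 11.77 ± 0.05 in WT and 11.51 ± 0.04 in Lkb1 KO (SD, n = 5 each), a difference of -0.25 (limma adjusted p = 0.00211), and its groups did not overlap. Rest, a repressor of neuronal genes that include sodium channels, gave 0.14 (limma adjusted p = 0.167), and Tlx3 gave -0.19 (0.261).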
